A study of Homo sapiens with 8 samples.

Results

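The genes described here build and store the lipids of the cell: 35 genes of cholesterol and fatty acid synthesis, found by their symbols among the 13453 genes of 1 RNA-seq table of Jurkat cells, a human T-cell acute lymphoblastic leukemia line. They fall into 7 genes of the mevalonate pathway, 12 of the sterol branch and of sterol storage and transport, 12 of fatty acid synthesis and 4 regulators. Of 36 symbols listed, SC5D, a late sterol desaturase, is carried by the table under its older symbol SC5DL, and its values are given apart from the 35. All 35 passed the filter of a mean of at least 1 FPKM, a read density scaled for exon length and for the mapped fragments of the library. In all, 11427 genes of the table passed it.

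The study asked what the loss of CBAP, the common beta-chain associated protein, whose gene is TMEM102, does to gene expression in leukemic T cells. Its 8 libraries, 2 per condition, form 2 sets. In the shRNA set, sh-Ctrl cells carry a non-targeted control shRNA and sh-CBAP cells an shRNA against CBAP, both brought in by lentivirus under puromycin selection. In the CRISPR set, both conditions descend from CBAP-knockout (CBAP-KO) Jurkat cells made with CRISPR/Cas9 and grown as single-cell clones: CBAP-reconstituted cells express a CBAP-GFP fusion, and CBAP-KO+GFP cells express GFP. All 4 conditions are thus stably modified Jurkat derivatives kept in culture without a treatment, and sh-Ctrl and CBAP-reconstituted cells are together called CBAP-expressing, sh-CBAP and CBAP-KO+GFP cells CBAP-deficient. The sources used here do not say which shRNA the sequenced cells carry, nor whether the 2 libraries of a condition came from separate clones or cultures, so the p-values may measure technical spread only.

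TMEM102 read 4.07 and 4.74 FPKM in sh-Ctrl and 2.69 and 2.89 in sh-CBAP cells (limma, log2 change -0.51, adjusted p = 0.0287). All 4 CRISPR-set libraries list it at 0, the CBAP-reconstituted ones included, although those cells are described as expressing a CBAP-GFP fusion. The labels of that set therefore cannot be checked on it, and the reason for these values was not tested. T-cell markers were present throughout. Of 12, 10 were in the table, with a summed level of 1669 to 1675 FPKM in sh-Ctrl, 1677 to 1835 in sh-CBAP, 1479 to 1489 in CBAP-reconstituted and 1940 to 2381 in CBAP-KO+GFP cells. Of the 10, 4 were lower in both CBAP-reconstituted libraries than in each of the other 6. CD5 read 0.180 and 0.231 FPKM there against 19.7 to 27.4, CD7 39.0 and 38.1 against 124 to 204, CD2 10.97 and 10.28 against 21.2 to 83.7, and CD247 73.5 and 74.0 against 78.1 to 94.4. Markers of myeloid, erythroid, liver and epithelial cells were either not among the table's genes or low. Of 4 B-cell markers, 1 was in the table, CD79A. It read 14.5 to 22.5 FPKM in sh-Ctrl, 13.0 to 15.9 in sh-CBAP, 0.732 to 1.09 in CBAP-reconstituted and 9.60 to 9.91 in CBAP-KO+GFP cells. The part of these differences in the results below was not tested.

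Cholesterol is made from acetyl-CoA through mevalonate and isoprenoid units to squalene, lanosterol and then cholesterol, while fatty acids are made from acetyl-CoA by carboxylation, chain building, elongation and desaturation. Transcription of these enzymes is driven by the sterol regulatory element binding proteins, SREBP-2 mainly for cholesterol and SREBP-1 mainly for fatty acids. SCAP escorts the SREBP precursors from the endoplasmic reticulum to the Golgi, where they are cut free, and INSIG proteins hold SCAP back when sterols are plentiful. Proliferating T cells and leukemic cells rely on this machinery for membranes.

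Because most of these genes moved together within a set, the 250 bases before an annotated start of 4 of them are shown. The 4 were chosen as the synthase ahead of mevalonate, the mevalonate decarboxylase, and the regulators INSIG1 and SREBF2. Sequences are from RefSeq on GRCh38.p14 and are written 5′ to 3′ on the gene's strand. The windows are HMGCS1 at chr5:43313413-43313662 on the minus strand, MVD at chr16:88663092-88663341 on the minus strand, INSIG1 at chr7:155297628-155297877 on the plus strand and SREBF2 at chr22:41832855-41833104 on the plus strand. Capitals mark every match, on either strand, to the sterol regulatory element letters TCACNCCAC, the CCAAT box, or the E-box CACGTG, none of which overlap here. HMGCS1 has a further annotated start, whose window at chr5:43313182-43313431 holds no match and is not shown.
HMGCS1: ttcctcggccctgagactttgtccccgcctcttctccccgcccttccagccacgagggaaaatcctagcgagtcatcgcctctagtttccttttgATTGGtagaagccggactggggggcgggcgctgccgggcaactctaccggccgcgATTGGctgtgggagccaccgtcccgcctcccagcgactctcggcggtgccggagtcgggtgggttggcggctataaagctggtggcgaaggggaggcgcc
MVD: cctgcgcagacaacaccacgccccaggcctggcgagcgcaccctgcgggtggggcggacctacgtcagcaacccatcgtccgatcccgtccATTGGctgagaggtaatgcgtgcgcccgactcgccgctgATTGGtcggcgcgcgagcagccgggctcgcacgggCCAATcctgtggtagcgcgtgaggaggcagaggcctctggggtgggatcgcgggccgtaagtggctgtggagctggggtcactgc
INSIG1: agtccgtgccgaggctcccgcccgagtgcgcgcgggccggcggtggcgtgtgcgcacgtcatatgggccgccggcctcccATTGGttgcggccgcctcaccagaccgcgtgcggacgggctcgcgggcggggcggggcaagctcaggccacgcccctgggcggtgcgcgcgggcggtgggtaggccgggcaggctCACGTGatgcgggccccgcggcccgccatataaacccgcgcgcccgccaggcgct
SREBF2: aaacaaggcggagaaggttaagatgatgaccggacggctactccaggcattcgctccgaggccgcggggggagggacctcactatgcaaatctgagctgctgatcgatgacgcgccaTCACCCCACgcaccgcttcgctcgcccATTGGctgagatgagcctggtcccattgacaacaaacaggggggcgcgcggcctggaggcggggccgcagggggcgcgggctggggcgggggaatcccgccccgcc
Of the 35 genes, 30 matched the promoter table, with 39 windows because some have several starts. The CCAAT box was in 26 of the 39 windows, belonging to 23 genes, and in 32.0% of 35093 annotated promoters of the same length. TCACNCCAC was in 1 window, that of SREBF2, and in 0.883% of all promoters. CACGTG was in 3 windows, those of ELOVL5, INSIG1 and SCAP, and in 6.34% of all promoters. These matches describe letters, not bound sites. No window of PMVK, ELOVL6, CYP51A1, FADS1, FADS2 or SREBF1 held any of these letters, although most of these genes were called in a set.

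The called changes of these genes were all downward in the shRNA set and mostly upward in the CRISPR set. In sh-CBAP against sh-Ctrl cells, 23 of 35 fell and 0 rose, where 8.7% of all tested genes fell and 3.62% rose (limma on log2(FPKM + 1), Benjamini-Hochberg adjusted p under 0.05). In CBAP-KO+GFP against CBAP-reconstituted cells, 19 rose and 4 fell, where 23.9% of all tested genes rose and 25.9% fell. The median change on the log2 scale was -0.60 in the shRNA set, against -0.06 over all tested genes, and 0.36 in the CRISPR set, against 0.00. Of the 35, 14 fell in sh-CBAP and rose in CBAP-KO+GFP cells, as did 1.69% of all tested genes. Another 3 (ACLY, ACACA and FASN) fell in both, as did 4.03% of all tested genes, ACLY with a change that turned to 0.03 in the CRISPR set under quantile normalization.

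The shRNA-set calls depended on how the spread was estimated. The fit pooled the spread of all 8 libraries, and the CRISPR-set libraries were the tighter ones. The median SD of a member between the 2 libraries of a condition, on the log2 scale, was 0.068 in sh-Ctrl, 0.18 in sh-CBAP, 0.023 in CBAP-reconstituted and 0.028 in CBAP-KO+GFP cells. With the 4 shRNA libraries fitted alone, 25 of the 35 had an unadjusted p under 0.05 but 0 passed the adjustment, the lowest adjusted p being 0.0539. Of all tested genes, that fit called 58 higher and 17 lower. The share of all tested genes with an unadjusted p under 0.05 was not computed. The CRISPR set alone gave 26 calls, in a fit that called 67.8% of all tested genes. Leaving out either CBAP-reconstituted library or sh-Ctrl replicate 1 left 12 shRNA-set calls, and leaving out either CBAP-KO+GFP library left 15. In the CRISPR set, leaving out either CBAP-reconstituted library left 14 calls and leaving out CBAP-KO+GFP replicate 2 left 15, of 23. Calls over all tested genes fell in each of these leave-out fits too. Both sh-CBAP libraries nevertheless lay below both sh-Ctrl libraries for 29 members, a separation seen in 33.2% of all tested genes. Under quantile normalization the all-gene calls of the shRNA set split into 845 higher and 830 lower rather than 414 and 994, and under median scaling into 767 and 854, with 23 members lower and 1 higher (HSD17B12) under both.

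**Figure D1:**
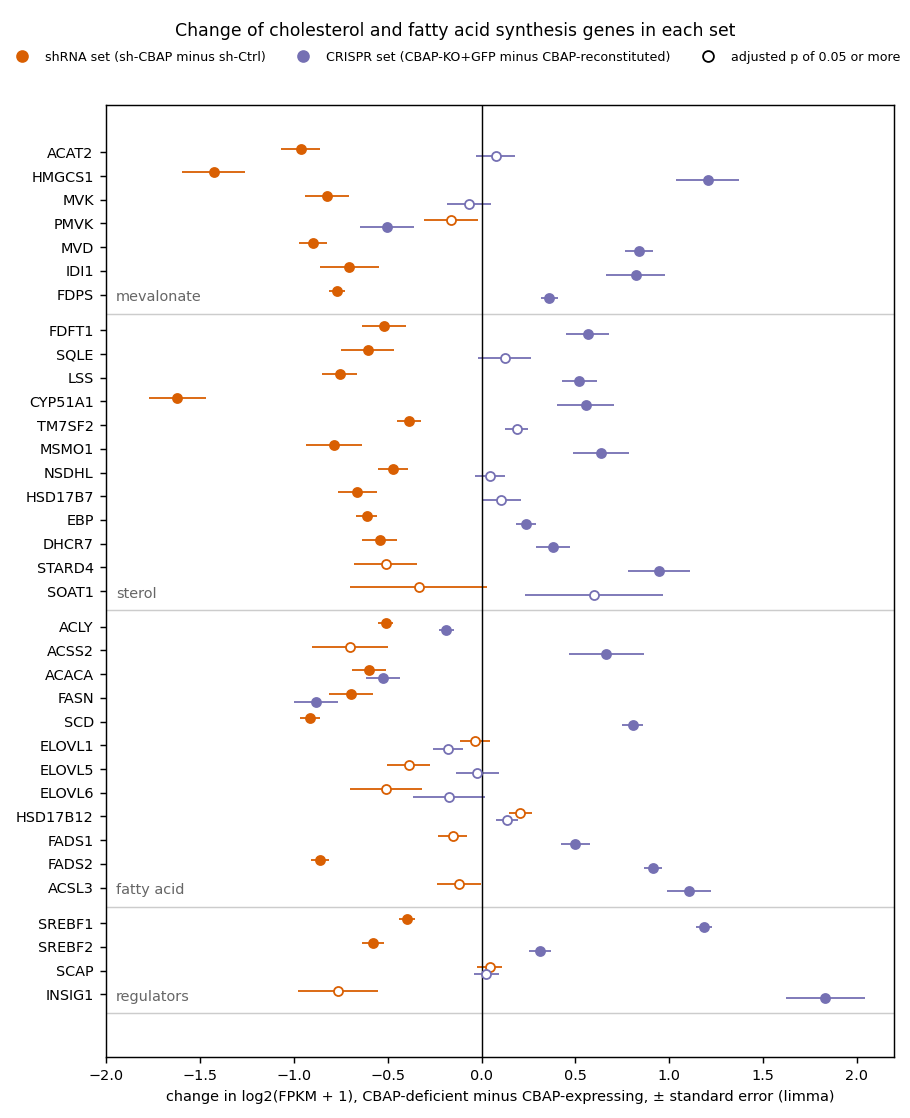
Change of each of the 35 genes on the log2(FPKM + 1) scale (horizontal axis) with its standard error, in the shRNA set (orange) and the CRISPR set (purple), ordered by step. Filled points had an adjusted p under 0.05; most orange points lie left of 0 and most purple points right of it, while ACLY, ACACA and FASN have both filled points to the left, ACLY's CRISPR-set change of -0.19 being 0.03 under quantile normalization.

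Of the mevalonate genes, 6 of 7 fell in sh-CBAP cells, while in CBAP-KO+GFP cells 4 rose and 1 fell. Among all tested genes 8.7% fell in the shRNA set, and 23.9% rose and 25.9% fell in the CRISPR set. HMGCS1, which makes the precursor of mevalonate, read 88.9 and 74.9 FPKM in sh-Ctrl, 24.8 and 35.5 in sh-CBAP, 38.9 and 38.8 in CBAP-reconstituted and 91.2 and 90.6 in CBAP-KO+GFP cells. It was high in sh-Ctrl and CBAP-KO+GFP cells and low in the other 2 conditions. Its mean was 0.368 times that of sh-Ctrl in sh-CBAP cells (adjusted p = 0.00954) and 2.34 times that of CBAP-reconstituted in CBAP-KO+GFP cells (adjusted p = 0.00258). MVD, the decarboxylase that yields the first isoprenoid unit, read 34.3 and 34.1 in sh-Ctrl, 18.9 and 17.0 in sh-CBAP, 32.6 and 33.9 in CBAP-reconstituted and 57.4 and 63.3 in CBAP-KO+GFP cells. Here the 2 CBAP-expressing conditions lay close together and the CBAP-deficient ones on either side, 0.524 times (adjusted p = 0.00367) and 1.82 times (adjusted p = 0.000535) their controls. IDI1, the isomerase of that unit, had 75.4 and 67.6 FPKM in sh-Ctrl, 37.2 and 50.6 in sh-CBAP, 67.9 and 71.5 in CBAP-reconstituted and 115 and 133 in CBAP-KO+GFP cells. Its order of levels matched that of MVD in placing CBAP-KO+GFP first and sh-CBAP last, with log2 changes of -0.70 (SE 0.156) and 0.82 (SE 0.156). FDPS, which joins isoprenoid units to farnesyl pyrophosphate, fell from 211 and 212 FPKM to 121 and 127 in sh-CBAP cells and rose from 149 and 151 to 194 and 192 in CBAP-KO+GFP cells. The FDPS changes were -0.77 (SE 0.0435, adjusted p = 0.0009) and 0.36 (adjusted p = 0.00153), and its level in CBAP-KO+GFP cells stayed below both sh-Ctrl libraries.

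Of the other mevalonate genes, ACAT2, a thiolase that joins 2 acetyl-CoA molecules, read 111 and 107 FPKM in sh-Ctrl, 49.4 and 61.9 in sh-CBAP, 94.7 and 96.3 in CBAP-reconstituted and 102 and 99.0 in CBAP-KO+GFP cells. It fell by 0.96 on the log2 scale in the shRNA set (adjusted p = 0.00785), and its CRISPR-set change of 0.08 did not pass. MVK, the mevalonate kinase, went from 13.3 and 11.7 FPKM in sh-Ctrl to 6.96 and 6.25 in sh-CBAP cells (adjusted p = 0.0152) and overlapped in the CRISPR set, at 12.0 and 13.6 against 11.1 and 13.2. PMVK, which adds the next phosphate, was the one mevalonate gene that fell in CBAP-KO+GFP cells, from 30.4 and 28.6 to 22.5 and 18.6 FPKM (adjusted p = 0.0318). Its sh-Ctrl values of 24.0 and 31.5 overlapped the sh-CBAP values of 24.3 and 24.5. Reads of FDPS and IDI1 could be shared with pseudogenes, 8 and 3 by annotation, and 17.2% of the exonic bases of ACAT2 lie opposite TCP1, so these levels are uncertain where the counting, whose use of strand is not given in the sources used here, could split them.

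In the sterol branch, 10 of 12 genes fell in sh-CBAP and 7 rose in CBAP-KO+GFP cells, with 0 called the other way in either set. The shares of all tested genes were 8.7% and 23.9%, with 3.62% and 25.9% called the other way. CYP51A1, the lanosterol demethylase, had the largest shRNA-set change of the 35: 9.47 and 8.96 FPKM in sh-Ctrl, 1.90 and 2.79 in sh-CBAP, 7.84 and 7.52 in CBAP-reconstituted and 10.6 and 13.0 in CBAP-KO+GFP cells. Its mean in sh-CBAP was 0.255 times that of sh-Ctrl (log2 change -1.62, SE 0.152, adjusted p = 0.0054), and no other condition came near those 2 libraries. Since 68.2% of its exonic bases belong also to a second annotated coding gene on the same strand and it has 3 pseudogenes, reads could be split between them. FDFT1, which makes squalene, read 315 and 269 in sh-Ctrl, 183 and 223 in sh-CBAP, 179 and 179 in CBAP-reconstituted and 261 and 270 in CBAP-KO+GFP cells. It was the most abundant gene of the branch, and sh-CBAP and CBAP-reconstituted cells were alike lower than the other 2 conditions. LSS, the cyclase that makes lanosterol, had 48.8 and 50.6 in sh-Ctrl, 26.3 and 32.0 in sh-CBAP, 42.5 and 42.3 in CBAP-reconstituted and 62.3 and 60.1 in CBAP-KO+GFP cells. Its changes were -0.76 (adjusted p = 0.0107) and 0.52 (adjusted p = 0.00622). MSMO1, a sterol methyl oxidase, went from 61.7 and 49.9 to 27.6 and 36.4 FPKM in the shRNA set and from 36.8 and 36.6 to 57.5 and 57.7 in the CRISPR set.

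The remaining sterol enzymes changed in one set or both. DHCR7, which completes cholesterol from its last precursor in one branch, read 67.4 and 64.7 FPKM in sh-Ctrl, 40.9 and 49.4 in sh-CBAP, 76.0 and 74.5 in CBAP-reconstituted and 101 and 96.3 in CBAP-KO+GFP cells. It changed by -0.54 in the shRNA set (adjusted p = 0.022) and by 0.38 in the CRISPR set (adjusted p = 0.0174). EBP, the sterol isomerase, read 79.7 and 84.3 in sh-Ctrl, 51.4 and 55.1 in sh-CBAP, 67.8 and 67.9 in CBAP-reconstituted and 79.9 and 80.1 in CBAP-KO+GFP cells, the last within the range of sh-Ctrl. A second annotated coding gene on the same strand covers 36.4% of its exonic bases. SQLE, the squalene epoxidase, fell from 66.9 and 65.4 to 36.7 and 50.7 FPKM in sh-CBAP cells (adjusted p = 0.0486). Its 75.5 and 77.7 in CBAP-reconstituted against 82.7 and 84.2 in CBAP-KO+GFP cells gave a change of 0.12 that did not pass. The same one-set pattern held for TM7SF2, a sterol reductase, with shRNA-set values of 24.7 and 23.8 against 18.5 and 18.1 and CRISPR-set values of 20.9 and 23.0 against 25.4 and 24.8 (adjusted p = 0.0203 and 0.0513). NSDHL and HSD17B7, which act in removing the sterol methyl groups, fell from 20.6 and 22.0 to 14.4 and 15.7 and from 18.2 and 16.5 to 9.62 and 11.6 FPKM in sh-CBAP cells. In the CRISPR set NSDHL read 18.6 and 20.7 against 20.8 and 19.7, and HSD17B7, which has 2 pseudogenes, 13.0 and 14.2 against 14.9 and 14.6, with no call for either.

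STARD4, a carrier of cholesterol between membranes, showed the reverse: 12.7 and 12.7 FPKM in CBAP-reconstituted rose to 25.2 and 25.5 in CBAP-KO+GFP cells (log2 change 0.94, adjusted p = 0.00599). In the shRNA set, 17.2 and 13.6 in sh-Ctrl against 8.81 and 12.3 in sh-CBAP cells did not pass (adjusted p = 0.104). SOAT1, which esterifies cholesterol for storage, was called in neither set, its sh-Ctrl libraries differing from each other at 13.8 and 30.6 FPKM, the widest spread of the 35. Its CRISPR-set libraries did not overlap, at 9.89 and 10.2 FPKM in CBAP-reconstituted and 15.9 and 15.7 in CBAP-KO+GFP cells. That log2 change of 0.60 had an SE of 0.366 in the pooled fit (adjusted p = 0.222). With the CRISPR set fitted alone the SE was 0.0355 (limma, adjusted p = 0.0015), in a fit that called 67.8% of all tested genes. SC5DL, kept apart from these counts, changed by -0.04 in the shRNA set and rose from 6.89 and 7.02 to 10.6 and 10.5 FPKM in the CRISPR set (adjusted p = 0.0188).

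**Figure D2:**
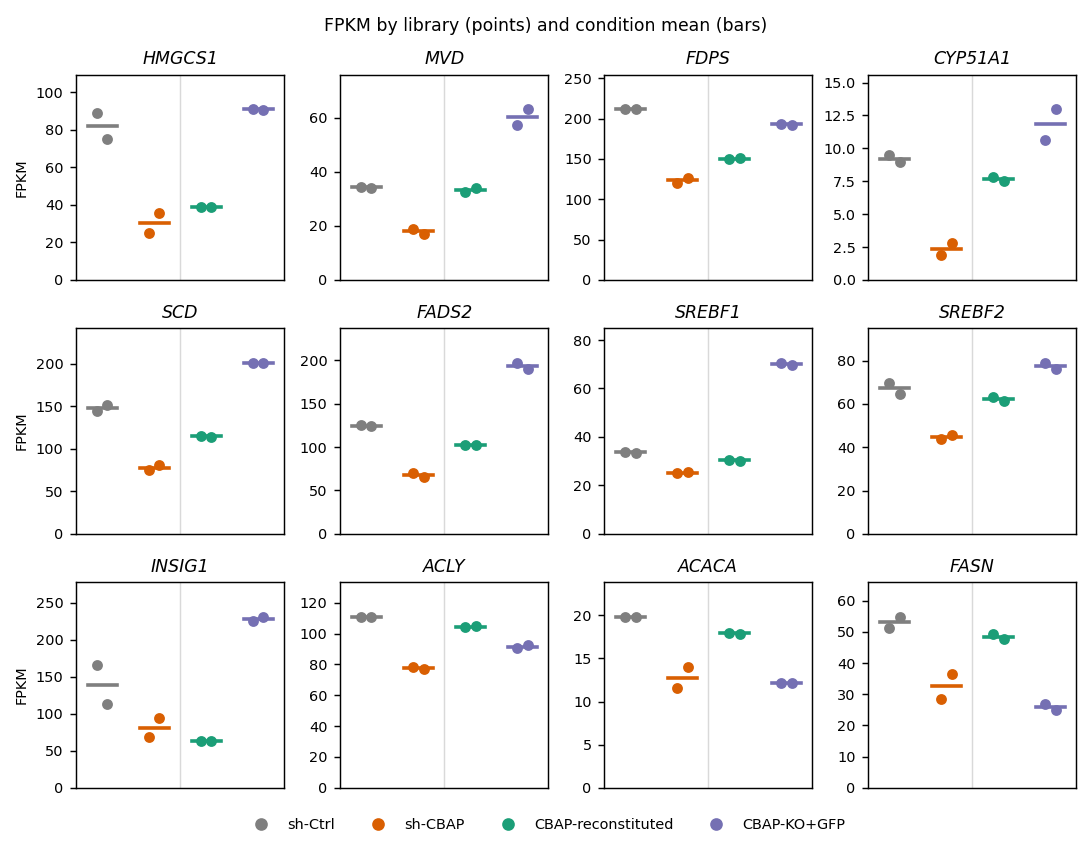
FPKM (vertical axes, each from 0) of 12 genes in each of the 8 libraries (points) with the mean of each condition (bars); the grey line parts the shRNA set from the CRISPR set. In the first 9 panels, from HMGCS1 to INSIG1, sh-CBAP lies below sh-Ctrl and CBAP-KO+GFP above CBAP-reconstituted, and for ACLY, ACACA and FASN the CBAP-deficient libraries of both sets lie below the CBAP-expressing ones, ACLY not under quantile normalization in the CRISPR set (0.03). All 4 deficient libraries lay below all 4 expressing ones in 10.3% of all tested genes.

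Fatty acid genes were divided. In sh-CBAP cells 5 of 12 fell and 0 rose, where 8.7% and 3.62% of all tested genes did. In CBAP-KO+GFP cells 5 rose and 3 fell, with a median change of 0.06, where 23.9% of all tested genes rose and 25.9% fell. The 3 of 12 that fell are near that share. The 3 that fell in both sets, ACLY not under quantile normalization, make palmitate from citrate. FASN, fatty acid synthase (chr17:80036214-80056170 on GRCh37, minus strand), read 51.3 and 54.9 FPKM in sh-Ctrl, 28.6 and 36.6 in sh-CBAP, 49.3 and 47.8 in CBAP-reconstituted and 26.8 and 25.0 in CBAP-KO+GFP cells. All 4 CBAP-deficient libraries lay below all 4 CBAP-expressing ones, at 0.614 (adjusted p = 0.0228) and 0.533 times (adjusted p = 0.00225) their controls. That separation was seen in 10.3% of all tested genes. ACACA, acetyl-CoA carboxylase 1 (chr17:35441927-35766927 on GRCh37, minus strand), was likewise lower in both, with 19.8 and 19.8 in sh-Ctrl, 11.6 and 14.0 in sh-CBAP, 18.0 and 17.9 in CBAP-reconstituted and 12.1 and 12.1 in CBAP-KO+GFP cells (adjusted p = 0.0167 and 0.00511). ACLY, the lyase that gives acetyl-CoA from citrate (chr17:40023170-40086795 on GRCh37, minus strand), read 111 and 111, 78.2 and 76.9, 104 and 105, and 90.4 and 92.7 in the same order of conditions. Its CRISPR-set change was small, -0.19 (adjusted p = 0.0122), and under quantile normalization it was 0.03 (adjusted p = 0.662). The difference of the changes between the sets passed for ACLY (-0.32, adjusted p = 0.0101) and not for ACACA (-0.07, adjusted p = 0.676) or FASN (0.19, adjusted p = 0.425).

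Of the 3 desaturases, 2 fell in sh-CBAP cells and all 3 rose in CBAP-KO+GFP cells. SCD, which makes monounsaturated fatty acids, had 144 and 151 FPKM in sh-Ctrl, 74.7 and 80.9 in sh-CBAP, 115 and 114 in CBAP-reconstituted and 201 and 201 in CBAP-KO+GFP cells. The 2 deficient conditions bracketed both controls with no overlap, and the changes were -0.91 (SE 0.0552, adjusted p = 0.00113) and 0.81 (SE 0.0552, adjusted p = 0.000236). FADS2, the first desaturase of polyunsaturated fatty acids, followed the same order, with 125 and 124 in sh-Ctrl, 70.3 and 66.0 in sh-CBAP, 103 and 102 in CBAP-reconstituted and 197 and 190 in CBAP-KO+GFP cells (adjusted p = 0.000969 and 0.000107). FADS1, the next desaturase, rose from 36.0 and 35.5 to 50.4 and 51.5 in CBAP-KO+GFP cells (adjusted p = 0.0038). The sh-Ctrl values of 37.2 and 33.7 lay just above the sh-CBAP values of 29.8 and 33.7 with no call. ACSL3, which activates fatty acids with CoA, rose from 19.4 and 18.9 to 41.2 and 43.3 FPKM in CBAP-KO+GFP cells (log2 change 1.10, adjusted p = 0.001) and overlapped in the shRNA set, at 19.7 and 18.3 against 15.3 and 19.7. ACSS2, which makes acetyl-CoA from acetate, was low everywhere, at 2.56 and 1.59 in sh-Ctrl, 0.620 and 1.15 in sh-CBAP, 0.971 and 1.08 in CBAP-reconstituted and 2.36 and 2.07 in CBAP-KO+GFP cells. It rose in the CRISPR set (adjusted p = 0.0379) and did not pass in the shRNA set (adjusted p = 0.079). The elongases ELOVL1, ELOVL5 and ELOVL6 and the reductase HSD17B12 of the elongation cycle were called in neither set, with changes between -0.51 and 0.21 in the shRNA set and between -0.18 and 0.14 in the CRISPR set. HSD17B12 was the one member whose 4 CBAP-deficient libraries all lay above the 4 CBAP-expressing ones, at 37.7 to 42.5 against 34.7 to 36.4 FPKM. Such a separation was seen in 4.67% of all tested genes.

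Among the regulators, both SREBP genes followed the opposite pattern and SCAP did not. SREBF1, the gene of SREBP-1 (chr17:17713713-17740316 on GRCh37, minus strand), read 33.7 and 33.5 FPKM in sh-Ctrl, 25.1 and 25.4 in sh-CBAP, 30.6 and 30.0 in CBAP-reconstituted and 70.6 and 69.8 in CBAP-KO+GFP cells. Its CBAP-KO+GFP level was 2.32 times that of CBAP-reconstituted cells (log2 change 1.18, SE 0.0428, adjusted p = 2.67e-05), and its sh-CBAP level 0.752 times that of sh-Ctrl (adjusted p = 0.00776). SREBF2, the gene of SREBP-2 (chr22:42229109-42303310 on GRCh37, plus strand), whose promoter above holds the sterol regulatory element letters, had 69.9 and 64.6 in sh-Ctrl, 43.6 and 45.8 in sh-CBAP, 63.2 and 61.4 in CBAP-reconstituted and 79.1 and 76.0 in CBAP-KO+GFP cells. Its shRNA-set change of -0.58 (adjusted p = 0.0069) was the larger one and its CRISPR-set change 0.31 (adjusted p = 0.00782). INSIG1, which retains SCAP (chr7:155089486-155101945 on GRCh37, plus strand), read 166 and 113 in sh-Ctrl, 68.6 and 93.8 in sh-CBAP, 63.3 and 63.4 in CBAP-reconstituted and 225 and 231 in CBAP-KO+GFP cells. It had the largest CRISPR-set change of the 35, with a mean 3.60 times that of CBAP-reconstituted cells (log2 change 1.83, SE 0.212, adjusted p = 0.00133). Its shRNA-set change of -0.76 (SE 0.212) did not pass (adjusted p = 0.0729), though its libraries did not overlap. SCAP held between 21.8 and 24.6 FPKM in all 8 libraries, with changes of 0.04 (SE 0.0665) and 0.02 (SE 0.0665).

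The difference of the changes between the sets, tested in the same model, was called for 26 of 35, all with the lower change in the shRNA set, where 18.3% of all tested genes were called that way. It included all 14 genes that fell in one set and rose in the other. By steps it was called for 6 of 7 mevalonate genes, 11 of 12 sterol genes, 6 of 12 fatty acid genes and 3 of 4 regulators. The signs of the changes were opposite in 25 of the 35, called or not, and in 42.1% of all tested genes. Across the 35 genes, which are not independent of each other, the changes of the sets had Pearson's r of -0.29 and Spearman's rho of -0.33. With all 4 CBAP-deficient libraries set against all 4 CBAP-expressing ones, 2 members were called, FASN (-0.79, SE 0.124, adjusted p = 0.0438) and ACACA (-0.56, SE 0.0905, adjusted p = 0.0468), both lower, where 0.411% of all tested genes were called lower and 0.21% higher. Neither passed under quantile normalization or median scaling. Leaving out 1 library gave 0 calls, or 1 without sh-CBAP replicate 2. With the set as a covariate 3 members were called lower, in a fit that called 8.46% of all tested genes lower. All 4 deficient libraries lay below all 4 expressing ones for 3 members and above for 1, where 10.3% and 4.67% of all tested genes did so.

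**Figure D3:**
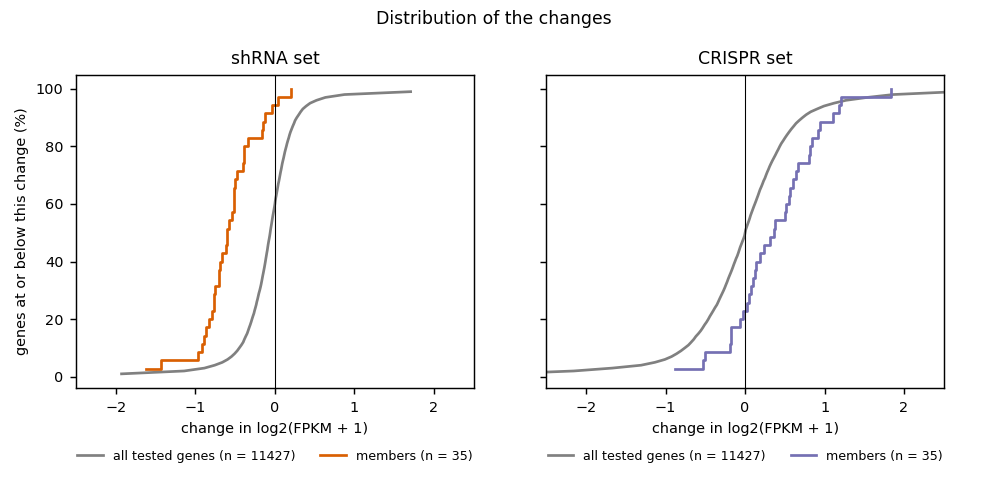
Share of genes (vertical axis, %) at or below each change in log2(FPKM + 1) (horizontal axis), for the 35 genes (coloured) and all 11427 tested genes (grey, by percentile), in each set. The coloured line lies to the left of the grey one in the shRNA set, with medians of -0.60 and -0.06, and to the right through most of its length in the CRISPR set, with medians of 0.36 and 0.00.

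Over the 4 conditions, sh-CBAP had the lowest mean of 26 members and CBAP-KO+GFP the highest of 18. The order CBAP-KO+GFP, sh-Ctrl, CBAP-reconstituted, sh-CBAP was the most frequent, at 13 members. The shares of all tested genes ranked in these ways were not computed, so these ranks only describe the members. The median FPKM over the 35 was 37.2 and 36.4 in the sh-Ctrl libraries, 36.0 and 35.8 in CBAP-reconstituted, 26.8 and 33.7 in sh-CBAP and 57.4 and 57.7 in CBAP-KO+GFP cells. The 2 controls were not at one level: 27 members had a lower mean in CBAP-reconstituted than in sh-Ctrl cells. The median ratio was 0.905, with a range from 0.316 for ELOVL6 to 1.35 for ELOVL5. The same ratio over all tested genes was not computed. Whole libraries differed as well, with summed FPKM of 431057 and 434742 in CBAP-reconstituted and 385687 and 389679 in sh-Ctrl cells. Genes at 0 numbered 606 and 623 against 1203 and 1256. The part of these differences in the ratios was not tested. Since the CRISPR comparison rests on the CBAP-reconstituted libraries that stood apart in CD5, CD7, CD2 and CD247, the CBAP-KO+GFP values were also set beside sh-Ctrl, as values only, because the sets differ in method. Of the 19 genes that rose in CBAP-KO+GFP cells, 14 lay above both sh-Ctrl libraries in both CBAP-KO+GFP libraries, FDPS lay below both and 4 overlapped. The 4 that fell, PMVK, ACLY, ACACA and FASN, lay below both sh-Ctrl libraries. The share of all tested genes that separated from sh-Ctrl in this way was not computed, so these counts only describe the members. Both CBAP-KO+GFP libraries exceeded both CBAP-reconstituted ones for 25 members and lay below them for 6, separations that 43.0% and 42.7% of all tested genes showed.

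**Figure D4:**
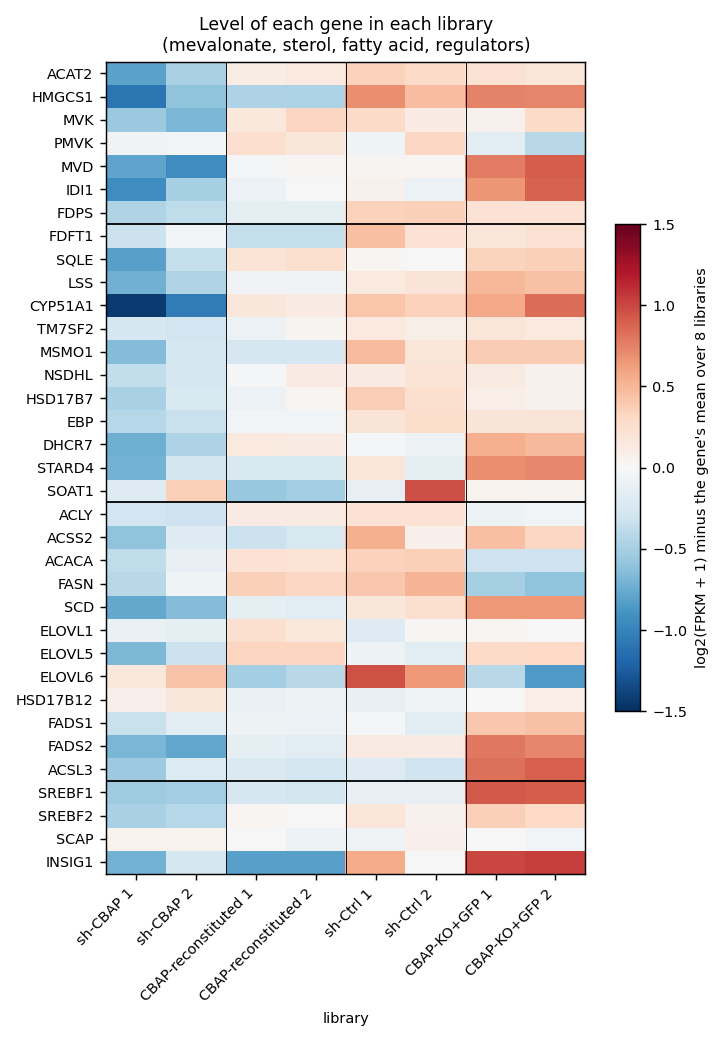
Level of each of the 35 genes (vertical axis, by step, with lines between steps) in each of the 8 libraries (horizontal axis), as log2(FPKM + 1) minus the gene's mean over the libraries (blue below, red above). Most genes are blue in the 2 sh-CBAP libraries and red in the 2 CBAP-KO+GFP libraries, while 6 (PMVK, ACLY, ACACA, FASN, ELOVL6 and SCAP) lie below their mean in both CBAP-KO+GFP libraries.

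Genes around the pathway, in 6 further lists of 81 symbols with 73 past the filter, were called in both directions: 2 rose and 5 fell in sh-CBAP cells, and 15 rose and 19 fell in CBAP-KO+GFP cells. These are 2.74%, 6.85%, 20.5% and 26.0% of the 73, near the shares of all tested genes (3.62%, 8.7%, 23.9% and 25.9%). Sterol transport and efflux genes counted 0 higher and 1 lower of 13 in the shRNA set and 3 and 3 in the CRISPR set, where ABCG1, a sterol exporter, rose from 2.35 and 2.64 to 21.1 and 24.7 FPKM (log2 change 2.77, adjusted p = 0.000512). In the same list NPC1, which moves cholesterol out of lysosomes, fell from 8.78 and 8.68 to 7.13 and 6.60 in sh-CBAP cells (adjusted p = 0.0421). Genes that supply citrate and NADPH counted 0 higher and 1 lower of 7 in the shRNA set and 2 and 5 in the CRISPR set. Of these, SLC25A1, the carrier that exports citrate for ACLY, fell in both, from 65.4 and 58.4 to 38.9 and 45.3 (adjusted p = 0.0234) and from 70.1 and 69.5 to 44.9 and 41.5 FPKM (adjusted p = 0.00257). MDH1, cytosolic malate dehydrogenase, had the largest CRISPR-set change, from 174 and 172 to 98.7 and 90.8 FPKM.

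Fatty acid elongation and activation genes other than the members counted 1 higher and 1 lower of 15 in the shRNA set and 4 and 4 in the CRISPR set. ACSL1, another activating enzyme, rose from 4.68 and 4.49 to 14.8 and 16.5 FPKM in CBAP-KO+GFP cells (adjusted p = 0.000435). PTPLA, an older symbol of HACD1, a dehydratase of the cycle, rose from 19.0 and 18.1 to 23.1 and 26.3 in sh-CBAP cells and fell from 19.0 and 18.9 to 10.9 and 10.9 in CBAP-KO+GFP cells. Glycerolipid synthesis counted 0 higher and 1 lower of 17, then 4 and 4, with PCYT2, an enzyme of phosphatidylethanolamine synthesis, falling from 12.9 and 13.8 to 9.01 and 9.87 in sh-CBAP and AGPAT3, an acyltransferase of phosphatidic acid synthesis, rising from 1.15 and 0.968 to 3.37 and 3.71 in CBAP-KO+GFP cells. The isoprenoid branch, which uses farnesyl pyrophosphate for other products, counted 1 higher and 0 lower of 12, then 0 and 2, with RABGGTB, a subunit of the enzyme that prenylates Rab proteins, rising from 38.4 and 40.5 to 53.9 and 79.0 in sh-CBAP and PDSS1, which makes the ubiquinone side chain, falling from 31.6 and 32.3 to 20.0 and 17.5 in CBAP-KO+GFP cells. Genes of SREBP processing counted 0 higher and 1 lower of 9, then 2 and 1. VCP, an ATPase of protein extraction from the endoplasmic reticulum, fell in both sets, from 114 and 124 to 74.5 and 76.8 FPKM in sh-CBAP cells (adjusted p = 0.00396) and from 159 and 157 to 60.3 and 59.9 in CBAP-KO+GFP cells (log2 change -1.38, adjusted p = 3.65e-05).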

How the data were processed

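RNA from 8 Jurkat-derived samples was sequenced, and base calling used CASAVA 1.8. On hg19, TopHat gave the authors' alignments and cuffdiff of Cufflinks their FPKM. The deposited table holds FPKM, already scaled for exon length and mapped fragments, for 13453 genes. Depth is therefore unknown, so intervals needing counts are not given and replicate spread, from 2 libraries each, sets the precision. The annotation, the Cufflinks version and the scaling between libraries are not given in the sources used here.

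From the FPKM, log2(FPKM + 1) was computed and the 11427 genes with a mean of at least 1 FPKM were fitted with limma 3.58.1 (R 4.3.3; empirical Bayes with trend), with a mean for each of the 4 conditions, and separately with a mean for each class of 4 libraries. Changes are on this scale and understate those of low genes. P-values were adjusted by Benjamini-Hochberg over all tested genes, with a threshold of 0.05. On simulated data for the shRNA comparison, 158 of 200 changed genes among 11427 were recovered with 6 false calls, and 0 calls were made with no change. Changed genes were shifted by 1 on the log2 scale, under normal noise with the same spread in all conditions. The spread of the real conditions was unequal, so the simulation cannot show how many shRNA-set calls are false. Groups came from the sample labels. Values per library are given for members called in either set and for the regulators, and from each further list the gene with the largest called change in each set is named. The members and lists were chosen with earlier results of these data known. A gene of these lists is not reported here. Gene positions are from GENCODE lifted to GRCh37 and promoters from RefSeq on GRCh38.p14, read separately. Python 3.11.15, numpy 2.4.6, pandas 2.3.3 and matplotlib 3.10.9 were used. Alternatives were other pseudocounts (0.1 and 0.5), filters (none, and a mean of at least 5 FPKM), quantile normalization, median scaling, no trend, the replicate number as a block, each set alone, the set as a covariate of the class comparison and each library left out.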

Additional observations from a re-analysis of the deposited data

Results flagged for a closer look

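For 26 of the 35 genes the change differed between the sets by the test of the difference itself (limma, adjusted p under 0.05), each with the lower change in the shRNA set. On the log2 scale, the change in the shRNA set less that in the CRISPR set was -1.04 for ACAT2, -2.63 for HMGCS1, -0.76 for MVK, -1.74 for MVD, -1.53 for IDI1 and -1.13 for FDPS among the mevalonate genes. Among the sterol genes it was -1.09 for FDFT1, -0.73 for SQLE, -1.28 for LSS, -2.18 for CYP51A1, -0.57 for TM7SF2, -1.42 for MSMO1, -0.52 for NSDHL, -0.77 for HSD17B7, -0.85 for EBP, -0.93 for DHCR7 and -1.46 for STARD4. Among the fatty acid genes it was -0.32 for ACLY, -1.37 for ACSS2, -1.72 for SCD, -0.65 for FADS1, -1.77 for FADS2 and -1.23 for ACSL3. Among the regulators it was -1.58 for SREBF1, -0.89 for SREBF2 and -2.60 for INSIG1. In 20 of the 26 the difference was called in each of the 8 fits that left out 1 library.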

How the results depend on the processing

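Of 1672 member values recomputed with a pseudocount of 0.1, the filter at 5 FPKM, quantile normalization, median scaling and each library left out, 1516 kept their side of the threshold and, if called, their direction, 131 lost their call, 24 gained one and 1 reversed: the CRISPR-set change of ACLY, -0.19, was 0.0319 under quantile normalization, and the cause was not tested. Among the 1516, 59 values that were not called differed in sign from the value reported. The other alternatives were run for the counts of members called and are not in these numbers. Of the shRNA-set members called, the 23 became 4 with the replicate number as a block and 0 with the 4 libraries of the set alone, a fit that takes no spread from the tighter CRISPR-set libraries. Calls fell over the whole table too: 22 of all tested genes were lower with the block and 17 with the set alone, against 994 in the reported fit. Leaving out 1 library at a time gave 12 to 28 calls in the shRNA set, with 12 of the 23 called in all 8 fits, and 14 to 25 in the CRISPR set, with 13 of the 23 called in all 8. It gave 20 to 28 for the difference of the changes and 0 to 1 for the class comparison. Leaving out 1 library moved the calls over all tested genes as well, so these member counts also follow the power of the whole fit. In the class comparison the 2 calls became 0 under quantile normalization, 0 under median scaling and 0 with the replicate block, where 4, 3 and 5 members had an unadjusted p under 0.05. Of all tested genes, these fits called 79, 83 and 0 lower. The median CRISPR-set change was 0.53 under quantile normalization. The sources used here do not say whether same-numbered libraries share a culture or a batch. Their deviations correlated at 0.146 for shRNA and 0.0239 for CRISPR libraries, which cannot settle whether they were paired. The block gave 18 calls in the CRISPR set and 20 for the difference. Over all tested genes it called 2115 higher and 2466 lower in the CRISPR set, and 1173 higher and 1112 lower for the difference. Keeping only genes above 0 in all libraries, an alternative chosen after seeing the data, gave 26 and 23 calls. With 2 libraries per condition and no counts, the depth behind low genes such as ACSS2 and CYP51A1 cannot be given.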
